A study of Rattus norvegicus with 10 samples.

Results

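Voltage-gated sodium and calcium channels, hyperpolarization-activated cyclic nucleotide-gated (HCN) channels and transient receptor potential (TRP) channels were examined in the lumbar spinal cord of morphine-tolerant rats. The members were all mRNA probes of the array whose RefSeq gene symbol began with Scn and a digit, Cacna, Cacnb, Cacng, Hcn and a digit, or Trpa, Trpc, Trpm or Trpv and a digit. This rule took 59 of 15323 mRNA probes, and 24684 probes were on the array in all. The 59 probes stood for 54 genes. One gene taken by the letter of the rule, Trpc4ap, encodes a protein that associates with TRPC4 and is not itself a channel.

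All rats were male Sprague Dawley rats, and every array held total RNA of the lumbar enlargement of 1 rat. Rats 1 to 5, the morphine tolerance (MT) group, were given intrathecal morphine, 10 μg in 10 μl, 2 times daily over 7 days. Rats 6 to 10, the normal saline (NS) group, were given 10 μl of saline on the same schedule. Both groups were killed on day 8, after a further morning injection of morphine or saline, so that the MT cords carried recent as well as repeated morphine. The whole lumbar enlargement was used, and in such bulk tissue a change in the number of cells of a type and a change in RNA per cell cannot be told apart.

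Sodium channels carry the rising phase of the action potential. They consist of a pore-forming alpha subunit with auxiliary beta subunits. Calcium channels open on depolarization and trigger transmitter release, and their pore-forming alpha1 subunits are carried to the membrane and tuned by alpha2delta and beta subunits. HCN channels open on hyperpolarization, are gated by cyclic AMP and set the resting excitability of neurons, while TRP channels are cation channels opened by heat, cold, osmotic swelling, irritants or lipid messengers. The mu opioid receptor, through which morphine acts, inhibits presynaptic calcium channels through its G protein and lowers cyclic AMP. The comparison of MT with NS asked whether the mRNAs of these channels differed in tolerant cords.

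Levels are given as quantile-normalized log2 intensities, where a difference of 1 is a doubling of signal, and differences are MT minus NS on that scale. Differences were fitted with limma across 20284 RNAs, and p values were adjusted over all of them by the Benjamini-Hochberg method. An RNA met the study's criteria with a linear fold above 1.5 in either direction and an unadjusted p below 0.05. Probe levels were not compared between genes, because the signal of a probe depends on its sequence. Arrays that shared a scan time were taken as 1 slide. Slide 1 held MT rats 1, 3, 4 and 5, slide 2 held MT rat 2 and NS rats 6, 7 and 10, and slide 3 held NS rats 8 and 9. The share of spots well above background was between 81.1% and 83.9% in the MT group and between 77.4% and 79.6% in NS rats 6, 7 and 10, but 63.8% in NS rat 8 and 58.6% in NS rat 9. Both slide 3 arrays lay outside the range of the other 8 for 40.6% of all RNAs with a value on every array, so results are also given without these NS rats.

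Of the 59 probes, 55 were tested, standing for 50 genes. Of these, 43 were well above background on all 10 arrays and 12 on 5 to 9 of them, and a probe could thus pass through 1 group alone. Trpv3, Trpv5, Cacng1 and Cacna2d2 were not well above background on any array and were not tested. Trpv3 is a warmth-gated channel of skin, Trpv5 a calcium-selective channel of kidney, and Cacng1 a subunit of the skeletal muscle calcium channel. Cacna2d2 encodes an alpha2delta subunit that, like the product of Cacna2d1, binds gabapentin.

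Trpv4 gave the largest difference of the tested members. It encodes a calcium-permeable cation channel opened by osmotic swelling and warmth, and its probe was well above background on all 10 arrays. The log2 intensities were 6.90, 6.84, 6.83, 6.90 and 6.93 in MT rats 1 to 5, and 5.81, 5.56, 6.18, 6.03 and 5.51 in NS rats 6 to 10. No NS rat reached the lowest MT rat, and the MT rats lay close together with an SD of 0.042, against an SD of 0.29 in the NS rats. The difference was 1.06 (SE 0.13, 95% interval 0.78 to 1.34), which is a fold of 2.08 (95% interval 1.71 to 2.54). The limma adjusted p was 0.0215, and the exact two-sided permutation p was 0.00794, which is the smallest that 5 against 5 rats can give. Trpv4 ranked 8 by p among all 20284 RNAs and 103 of 13373 mRNAs by upward fold.

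The Trpv4 difference was larger when the slide 3 arrays were left out. It was 1.25 without NS rats 8 and 9 (adjusted p = 0.00555), because these rats had the highest NS values. Slide 1 held MT rats 1, 3, 4 and 5 and no NS rat, so for these rats slide and group cannot be told apart. On slide 2, the MT array of rat 2 read 6.84 and its NS neighbours, rats 6, 7 and 10, read between 5.51 and 5.81. At the same threshold no RNA of the array passed with slide as a block, or without MT rat 1 or NS rat 9, and 3 and 6 passed without MT rats 4 and 5, against 40 with all rats. The adjusted call of Trpv4 was lost when slide entered the model as a fixed block, where the difference was 1.21 (adjusted p = 0.138), or as a random block (adjusted p = 0.0668). It was also lost without MT rat 1 (adjusted p = 0.0989), MT rat 4 (0.0880), MT rat 5 (0.0567) or NS rat 9 (0.0675), while the difference stayed between 0.98 and 1.15 whichever rat was left out. Over the 23 alternatives the adjusted p ranged from 0.000513 to 0.138, and the study's criteria were met in all 23. With normexp background correction the difference was 0.59, the smallest of the 23 and only just above 1.5-fold.

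Trpv4 was the 1 member of 55 past the adjusted threshold, and the same gene was the 1 member that met the study's criteria. Of all RNAs tested, 0.197% passed the adjusted threshold and 2.74% met the criteria. An unadjusted p below 0.05 was found for 10 members, 8 of them higher in MT and 2 lower, against 16.4% of all RNAs, and 6.84% of all RNAs were higher with such a p. With 75th percentile scaling the split was 11 higher and 1 lower among the members, and over all RNAs 1884 higher and 1746 lower in place of 1388 and 1934. MT and NS values did not overlap for 3 members, all higher in MT, against 5.62% of the 20221 RNAs with a value on every array. In all, 36 members were higher and 19 lower, and 49.8% of all RNAs were higher. The median difference of the members was 0.07, against -0.0013 over all RNAs, and the median size of the difference without its sign was 0.13 for the members and 0.15 over all RNAs. No other member differed by more than 1.5-fold.

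**Figure D1:**
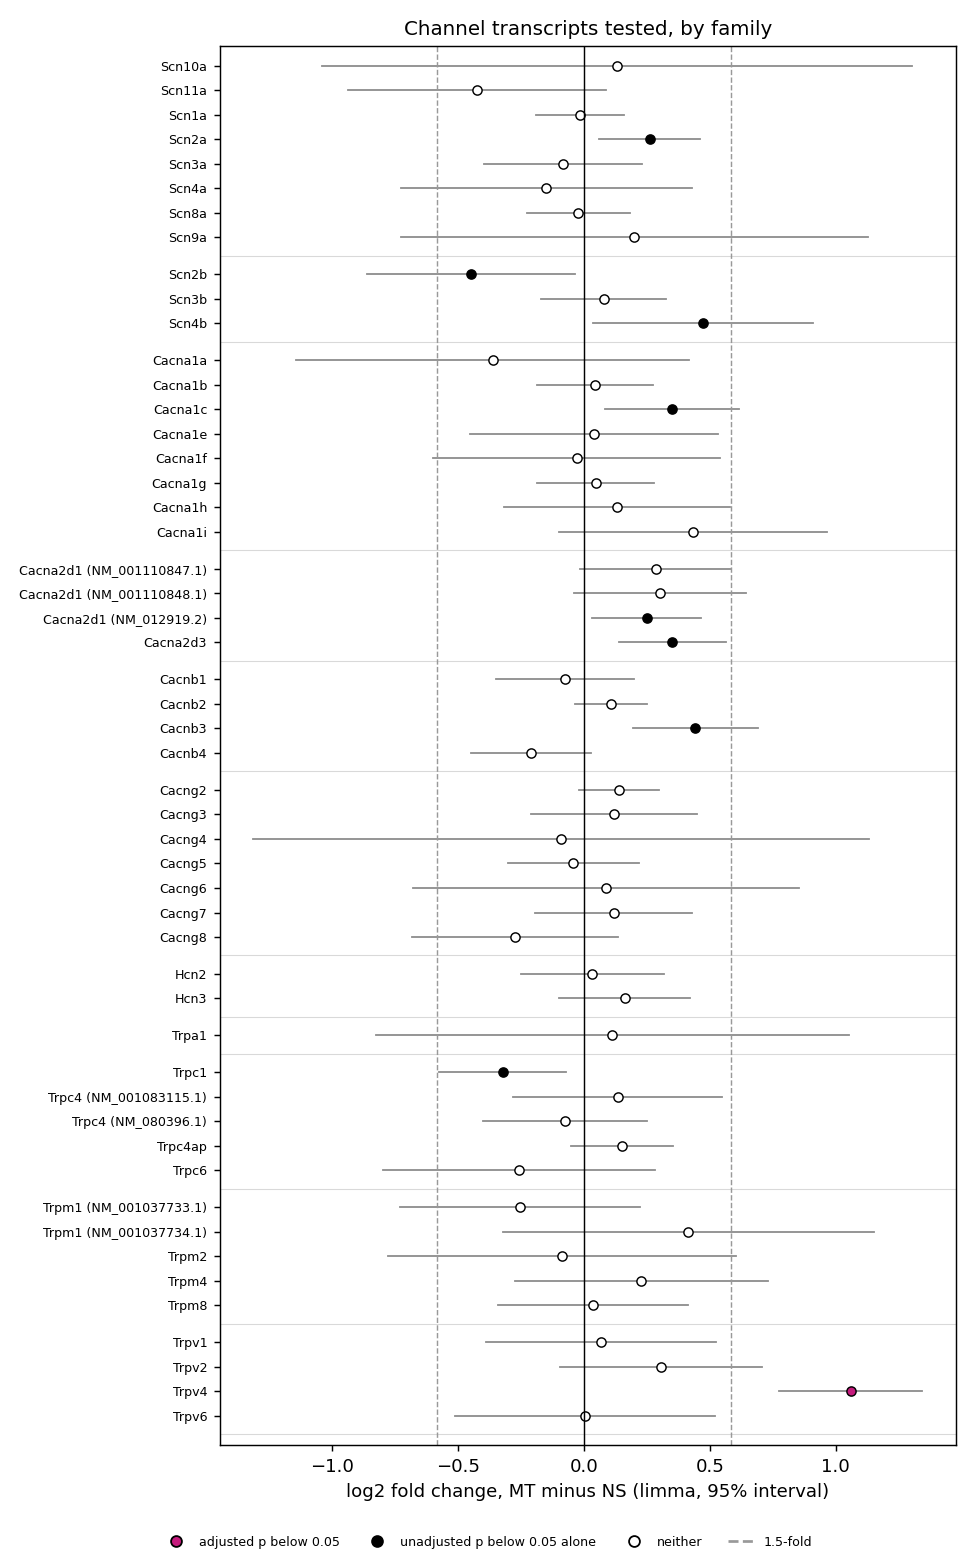
Difference between MT and NS of the 51 tested channel transcripts reported here (log2 fold change, MT minus NS, 5 rats per group) with its 95% interval from limma, grouped by family; dashed lines mark 1.5-fold and fill marks the p value. Trpv4, at 1.06, is the 1 member whose interval lies wholly outside the 1.5-fold lines.

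The 3 members whose groups did not overlap were Trpv4, Cacnb3 and Cacna2d3. As a share of the 55 tested members this is near the 5.62% found over all RNAs. Their promoters, the 250 bases before and 50 bases after the annotated start in RefSeq (GRCr8), are shown for these 3 genes because they separated the groups, and capitals mark matches to the GC box GGGCGG on either strand. Overlapping matches were each counted. The table lists a start for each gene, which need not be that of the RNA probed, and for Cacnb3 (chromosome 7, 131663810-131676085) the window lies inside the annotated gene.
Trpv4, chr12:47598938-47599237, plus strand: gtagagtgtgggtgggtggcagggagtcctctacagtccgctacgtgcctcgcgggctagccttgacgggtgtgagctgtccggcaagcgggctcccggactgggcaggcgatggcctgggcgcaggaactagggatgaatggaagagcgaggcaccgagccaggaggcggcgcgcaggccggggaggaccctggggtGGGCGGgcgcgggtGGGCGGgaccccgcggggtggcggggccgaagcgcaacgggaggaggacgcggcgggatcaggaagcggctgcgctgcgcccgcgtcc
Cacnb3, chr7:131666301-131666600, plus strand: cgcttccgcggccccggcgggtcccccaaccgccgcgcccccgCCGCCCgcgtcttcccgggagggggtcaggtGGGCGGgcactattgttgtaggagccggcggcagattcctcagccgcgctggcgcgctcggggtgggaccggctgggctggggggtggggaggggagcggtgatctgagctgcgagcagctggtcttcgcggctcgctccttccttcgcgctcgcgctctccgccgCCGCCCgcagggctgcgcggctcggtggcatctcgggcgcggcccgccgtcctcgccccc
Cacna2d3, chr16:4918850-4919149, minus strand: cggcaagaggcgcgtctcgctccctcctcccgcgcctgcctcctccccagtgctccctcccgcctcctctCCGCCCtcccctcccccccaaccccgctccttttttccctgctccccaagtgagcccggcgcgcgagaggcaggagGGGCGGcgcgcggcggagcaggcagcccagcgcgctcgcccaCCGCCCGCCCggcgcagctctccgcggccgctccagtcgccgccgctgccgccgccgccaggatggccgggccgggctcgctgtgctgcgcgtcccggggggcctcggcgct
The Trpv4 window held 2 GC boxes, the Cacnb3 window 3 and the Cacna2d3 window 4. They held 34, 44 and 42 CpG dinucleotides respectively, against a median of 7 over all 33469 promoters of the table. CpG was not summarized over the other member promoters, so these counts are not read as particular to the 3 genes. None of the 3 windows held TATAAA or CCAAT on either strand. Of all promoters, 33.1% held a GC box, 14.2% TATAAA and 37.5% CCAAT. The table gave 41 promoters for 38 of the 54 member genes, of which 18 held a GC box, 2 TATAAA and 7 CCAAT. These matches describe the letters of the windows and were not tested for binding.

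Among the 4 tested Trpv genes all 4 differences were above 0, with a median of 0.19. The gene positions that follow are those of the RefSeq annotation of GRCr8. Trpv4 lies on chromosome 12 (47599161-47638143). Trpv1, the capsaicin and heat receptor of nociceptors, lay between 5.59 and 6.01 in the MT rats and between 4.97 and 6.10 in the NS rats, and its difference was 0.07 (SE 0.20). Its 95% interval ran from -0.39 to 0.52. The Trpv1 values on slide 3, 6.10 and 6.09, lay above the other 8, and without NS rats 8 and 9 the difference was 0.32. Trpv2, a channel of heat-sensitive and other cells, ranged from 10.25 to 10.98 in MT and from 10.07 to 10.91 in NS, a difference of 0.31 (SE 0.18, adjusted p = 0.42 by limma). Trpv6, a calcium-selective channel of epithelia, differed by 0.0048 (SE 0.23). Its slide 3 values, 4.54 and 4.07, lay below the other 8, and without NS rats 8 and 9 the difference turned to -0.35 (adjusted p = 0.22). A test of Trpv4 against the other Trpv genes was not made.

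**Figure D2:**
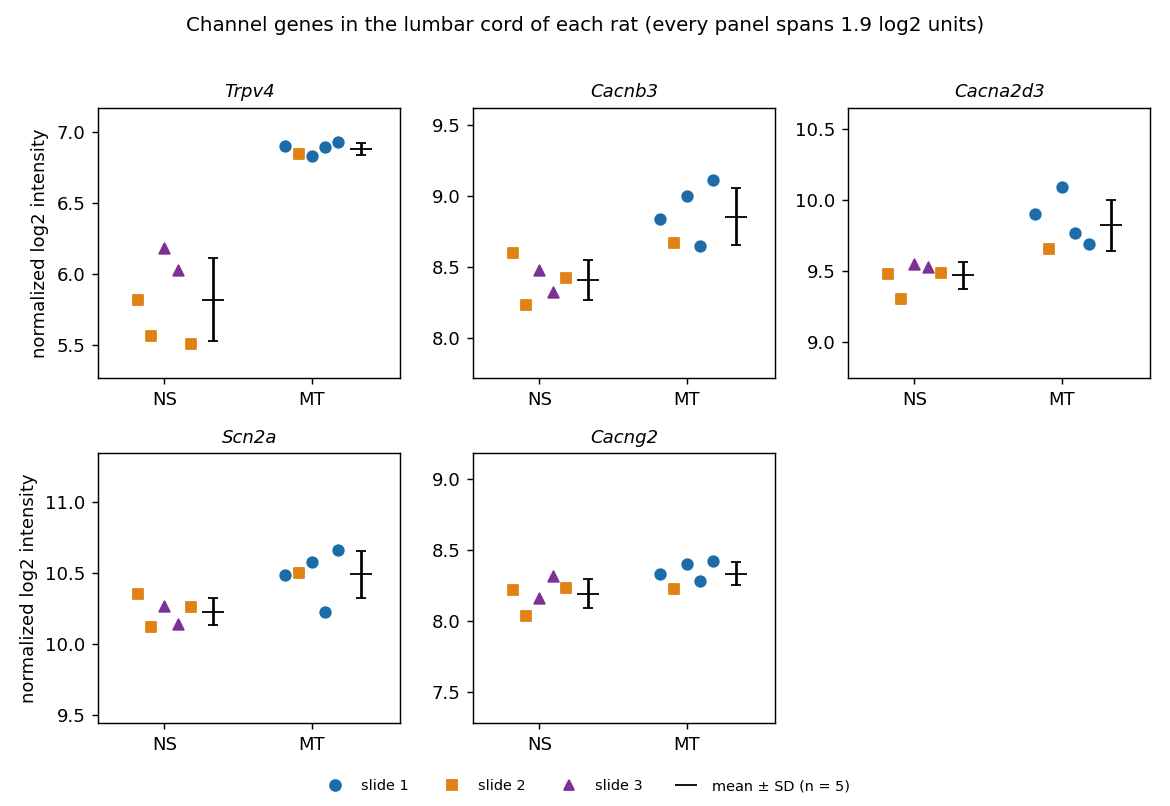
Normalized log2 intensity of Trpv4, Cacnb3, Cacna2d3, Scn2a and Cacng2 in each of the 5 NS and 5 MT rats, with the mean and SD of the group beside the points; symbols give the slide, and every panel spans the same number of log2 units. The Trpv4 panel shows 5 MT rats between 6.83 and 6.93 above 5 NS rats between 5.51 and 6.18, while the MT and NS points of Scn2a and Cacng2 overlap.

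The alpha2delta subunits of calcium channels were higher in MT in all 4 tested RNAs, with a median of 0.29. Cacna2d3, whose product, like other alpha2delta proteins, raises the number of calcium channels at the surface, had log2 intensities of 9.90, 9.65, 10.09, 9.77 and 9.69 in MT rats 1 to 5 and of 9.48, 9.30, 9.55, 9.52 and 9.49 in NS rats 6 to 10. The groups did not overlap, and the lowest MT rat was rat 2, which shared slide 2 with 3 NS rats. The difference was 0.35 (SE 0.095, fold 1.28), and the limma adjusted p was 0.15. Without NS rats 8 and 9 it was 0.40, and under the fixed slide block 0.23.

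Cacna2d1, the main target of gabapentin and pregabalin in pain pathways, was measured by 3 RNAs with 1 probe each. NM_012919.2 read 11.75, 11.78, 11.62, 11.79 and 12.08 in MT rats 1 to 5 and 11.73, 11.60, 11.47, 11.40 and 11.58 in NS rats 6 to 10, with the groups overlapping through MT rat 3. Its difference was 0.25 (SE 0.097, adjusted p = 0.26). NS rats 8 and 9 held its lowest values, and without them the difference was 0.17. NM_001110847.1 and NM_001110848.1 differed by 0.28 (SE 0.13) and 0.30 (SE 0.15), with adjusted p values of 0.33 and 0.36. For both, NS rats 8 and 9 held the highest NS values, and without them the differences were 0.42 and 0.46. These 2 probes moved nearly together across rats, from 8.98 to 9.57 and from 8.88 to 9.56 in the MT group, and they share a gene, so the 3 RNAs are not independent.

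The beta subunits of calcium channels, cytoplasmic proteins that bring alpha1 subunits to the membrane, did not move together. Cacnb3 read 8.84, 8.67, 9.00, 8.65 and 9.11 in MT rats 1 to 5 and 8.60, 8.23, 8.48, 8.33 and 8.42 in NS rats 6 to 10. The groups did not overlap, although MT rat 4 and NS rat 6 lay close. The difference was 0.44 (SE 0.11, fold 1.36), with a limma adjusted p of 0.12, and it was 0.25 under the fixed slide block. Cacnb2 differed by 0.11 (SE 0.063), Cacnb1 by -0.08 (SE 0.12) and Cacnb4 by -0.21 (SE 0.11). For Cacnb4, NS rats 8 and 9 read 7.74 and 7.85, above the 8 other rats, and without them the difference was -0.06.

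Over the 23 alternatives the Cacnb3 difference stayed between 0.25 and 0.49 and its adjusted p between 0.0805 and 1.0, and Cacna2d3 stayed between 0.23 and 0.40 with an adjusted p between 0.0668 and 1.0. Neither passed the adjusted threshold or met the study's criteria under any of them.

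The alpha1 subunits form the calcium pore. Of 8 tested, 6 were higher and 2 lower, with a median of 0.05. Cacna1c, the L-type channel that couples depolarization to gene expression in neurons, read 7.99, 7.71, 8.14, 7.95 and 7.98 in the MT rats and 7.79, 7.26, 7.80, 7.63 and 7.52 in NS rats 6 to 10. The 4 slide 1 rats lay above every NS rat and MT rat 2 lay among them. The difference was 0.35 (SE 0.12, adjusted p = 0.21), and 0.19 under the fixed slide block. Cacna1b, the N-type channel that opioid receptors inhibit and that intrathecal ziconotide blocks, lay between 10.17 and 10.71 in MT and between 10.31 and 10.53 in NS. Its difference was 0.04 (SE 0.10), and its interval, from -0.19 to 0.27, lies within 1.5-fold on either side.

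The T-type channels open at low voltage and support bursts of firing. Cacna1g differed by 0.05 (SE 0.10) and Cacna1h by 0.13 (SE 0.20). Cacna1i differed by 0.43 (SE 0.24), but NS rats 8 and 9 read 7.43 and 7.47 while the 8 other rats lay between 8.34 and 8.66. Without these rats the Cacna1i difference was 0.02.

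The P/Q-type channel Cacna1a, which triggers release at many central synapses, showed the reverse. NS rats 8 and 9 read 5.45 and 5.72, the other NS rats 4.01, 4.07 and 4.14, and the MT rats between 4.04 and 4.56. The difference of -0.36 (SE 0.35) turned to 0.24 without NS rats 8 and 9. Cacna1e, the R-type channel, differed by 0.04 with all rats and by 0.39 without them, and its slide 3 values of 5.03 and 4.96 lay above the other 8. Cacna1f, known from the retina, was well above background on 2 of the 5 NS arrays and differed by -0.03 (SE 0.26).

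The Cacng genes fall into subunits of muscle calcium channels and transmembrane AMPA receptor regulatory proteins, which carry AMPA-type glutamate receptors to the synapse. Of 7 tested, 4 were higher and 3 lower, and none had an unadjusted p below 0.05. Cacng2, which encodes stargazin, the founding AMPA receptor regulatory protein, had the smallest p. It read 8.33, 8.23, 8.40, 8.28 and 8.42 in the MT rats and 8.22, 8.04, 8.16, 8.32 and 8.23 in NS rats 6 to 10, with overlapping groups. The difference was 0.14 (SE 0.072, limma adjusted p = 0.36, exact permutation p = 0.0476).

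Cacng8, another AMPA receptor regulatory gene, read 7.05 and 7.11 in NS rats 8 and 9 and between 6.21 and 6.49 in the others, so that its difference of -0.27 became 0.04 without them. Cacng4 read 5.07 and 4.98 in these 2 rats and between 2.42 and 3.99 in the others, and it was well above background on 4 MT arrays and 1 NS array. Its difference was -0.09 with all rats and 0.85 without NS rats 8 and 9, where it met the study's criteria. On slide 2, MT rat 2 read 2.86 and the NS rats 2.81, 2.42 and 2.82, and the fixed block gave 0.17. Cacng3, Cacng5, Cacng6 and Cacng7 differed by 0.12, -0.04, 0.09 and 0.12 respectively. For Cacng7, NS rats 8 and 9 held the lowest values, and without them the difference was -0.09.

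Of the HCN channels, Hcn2, a cyclic AMP-sensitive isoform also found in nociceptors, ranged from 6.52 to 6.80 in MT and from 6.22 to 6.88 in NS. The Hcn2 difference was 0.03 (SE 0.13, 95% interval -0.25 to 0.32). NS rats 8 and 9 read 6.87 and 6.88, above the 8 other rats, and without them it was 0.19. Hcn3 read 6.36, 6.60, 6.55, 6.47 and 6.47 in MT rats 1 to 5 and 6.41, 6.46, 6.05, 6.09 and 6.62 in NS rats 6 to 10, with overlapping groups. Its difference was 0.16 (SE 0.12, adjusted p = 0.51 by limma). NS rats 8 and 9 lay below the 8 other rats for Hcn3, and without them the difference was -0.0094.

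Sodium channel alpha subunits were higher in 4 of 10 RNAs and lower in 6, with a median of -0.02. Scn2a, a channel of axon initial segments and unmyelinated axons, read 10.49, 10.50, 10.58, 10.22 and 10.66 in MT rats 1 to 5 and 10.35, 10.12, 10.26, 10.14 and 10.26 in NS rats 6 to 10. MT rat 4 lay among the NS rats and the other MT rats above them. The difference was 0.26 (SE 0.091, fold 1.20), with a limma adjusted p of 0.21 and an exact permutation p of 0.0317, and under the alternatives it lay between 0.20 and 0.33.

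Scn1a and Scn8a, the main channels of inhibitory interneurons and of nodes of Ranvier, were nearly level. Scn1a ranged from 13.56 to 13.95 in MT and from 13.76 to 13.87 in NS, a difference of -0.01 with an interval from -0.19 to 0.16. Scn8a differed by -0.02 with an interval from -0.22 to 0.18, and Scn3a, best known from the developing nervous system, by -0.08 with an interval from -0.40 to 0.23. For these 3 genes a change of 1.5-fold in either direction lies outside the interval.

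Scn9a, Scn10a and Scn11a are the sodium channels of nociceptors, whose cell bodies lie in the dorsal root ganglia rather than in the cord. Each was well above background on 4 or 5 MT arrays and on 2 or 3 NS arrays. Scn9a ranged from 3.04 to 5.00 in MT and from 3.44 to 5.02 in NS, a difference of 0.20 (SE 0.42). Scn10a read 4.84 in NS rat 6, 1.25 in NS rat 9 and between 3.12 and 3.61 in all other rats, and its difference of 0.13 (SE 0.53) turned to -0.48 without NS rats 8 and 9. Scn11a differed by -0.42 (SE 0.23, adjusted p = 0.39) and by 0.07 under the fixed slide block. The 95% intervals of all 3 genes held both 0 and a 1.5-fold change in at least 1 direction.

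Scn4a, the channel of skeletal muscle, read between 4.02 and 4.49 in all rats except MT rat 2, which read 2.89. Its difference was -0.15 (SE 0.26), and it was 0.12 without MT rat 2. Under the fixed slide block, where the estimate comes from MT rat 2 and its NS neighbours, it was -1.25 and passed those criteria.

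The beta subunits of sodium channels tether the alpha subunits and speed their gating. Scn4b, which is linked to resurgent sodium current, read 10.82, 10.15, 11.19, 10.37 and 10.16 in the MT rats and 9.92, 10.07, 9.99, 10.06 and 10.27 in NS rats 6 to 10. MT rats 1 and 3 stood well above the rest, and MT rats 2 and 5 lay below NS rat 10. The difference was 0.47 (SE 0.20, adjusted p = 0.28), and 0.06 under the fixed slide block. Scn2b read 4.63, 4.88, 4.62, 4.52 and 4.78 in the MT rats and 5.23, 4.66, 5.58, 5.47 and 4.72 in NS rats 6 to 10. The difference of -0.45 (SE 0.19, adjusted p = 0.28) was -0.18 without NS rats 8 and 9, which held the highest values, and 0.01 under the fixed slide block. Scn3b differed by 0.08 (SE 0.11).

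Several members lie beside each other in the genome: 19 member genes formed 8 clusters with gaps of at most 500 kb. Neighbours did not always share a direction. Scn2b and Scn4b, on chromosome 8 (54322383-54334519 and 54343873-54359046), are 9.35 kb apart and differed by -0.45 and 0.47. Scn3a and Scn2a, on chromosome 3 (70554496-70666198 and 70710862-70845569), differed by -0.08 and 0.26. Cacng6, Cacng8 and Cacng7 on chromosome 1 differed by 0.09, -0.27 and 0.12. Cacng4 and Cacng5, on chromosome 10, were both lower, at -0.09 and -0.04. These are the values given above, set by position, and no test of neighbouring was made.

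The TRP channels other than Trpv gave 1 difference with an unadjusted p below 0.05. Trpc1, a subunit of cation channels that open after receptor activation, read 10.39, 10.75, 10.14, 10.56 and 10.64 in the MT rats and 10.95, 10.81, 10.75, 10.73 and 10.84 in NS rats 6 to 10. MT rat 2 lay within the NS range and the other MT rats below it. The difference was -0.32 (SE 0.11, fold 1.25 lower, adjusted p = 0.22), and it was -0.12 under the fixed slide block. Trpc6, opened by diacylglycerol, differed by -0.26 (SE 0.24), and its NS values spread from 7.29 to 8.85 around an MT range of 7.85 to 8.04. The 2 RNAs of Trpc4 differed by 0.13 (NM_001083115.1) and -0.07 (NM_080396.1), and Trpc4ap by 0.15 (SE 0.091). For Trpc4ap, NS rats 8 and 9 held the lowest values, and without them the difference was 0.02.

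Trpm1, best known as the channel of retinal bipolar cells, was measured by 2 RNAs that differed in opposite directions. NM_001037734.1 read 5.74, 4.64, 5.83, 5.62 and 5.59 in the MT rats and 4.56, 4.57, 5.88, 5.70 and 4.64 in NS rats 6 to 10. The 4 slide 2 arrays, MT rat 2 and NS rats 6, 7 and 10, lay between 4.56 and 4.64, and the 6 arrays of the other slides, of both groups, between 5.59 and 5.88. The difference was 0.41 (SE 0.33) with all rats, 0.89 without NS rats 8 and 9, where it passed the study's criteria, and 0.05 under the fixed slide block. For this RNA, slide and group cannot be told apart outside slide 2. NM_001037733.1 differed by -0.25 (SE 0.21), with values from 4.80 to 5.97 in MT and from 5.44 to 6.02 in NS.

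Trpm2, opened by ADP-ribose under oxidative stress and present in microglia, spread from 7.36 to 8.93 in MT and from 7.55 to 8.43 in NS and differed by -0.09 (SE 0.31). Trpm8, the cold and menthol receptor, differed by 0.04 (SE 0.17). Trpa1, the receptor for mustard oil and other irritants, read 1.54 in NS rat 9 and between 3.42 and 3.93 in all other rats, and differed by 0.11 (SE 0.42). The difference turned to -0.33 without NS rats 8 and 9 (limma adjusted p = 0.19) and was -0.33 under the fixed slide block. Of these 2 rats only NS rat 9 was low, and NS rat 8, also on slide 3, read 3.93. Trpa1 was well above background on 5 MT and 3 NS arrays, and Trpm4, a channel opened by internal calcium, on 5 MT arrays and 1 NS array. Trpm4 differed by 0.23 (SE 0.23).

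**Figure D3:**
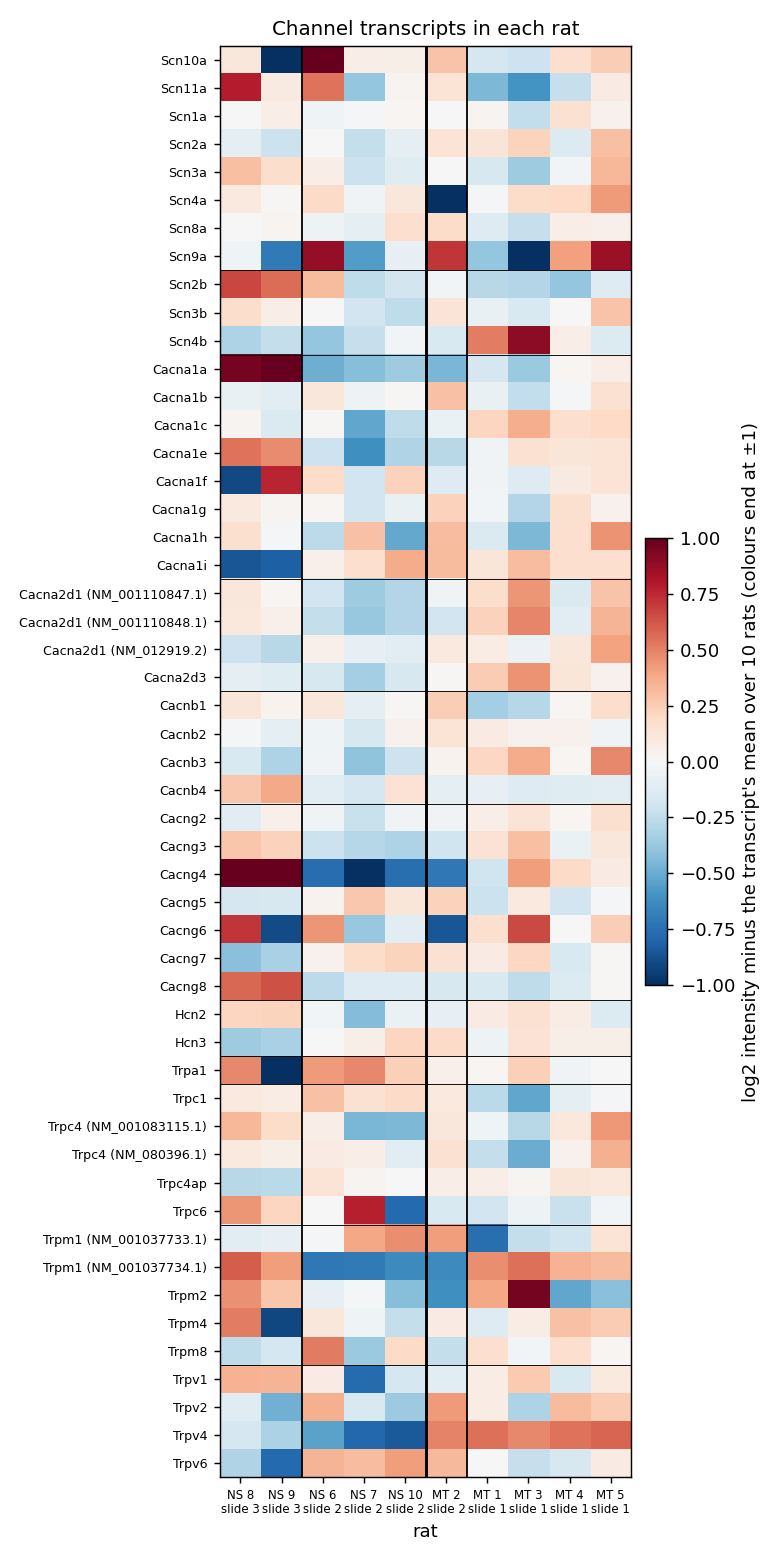
Log2 intensity of the 51 tested channel transcripts reported here (vertical axis, by family) in each rat (horizontal axis, arranged by group and slide), minus the mean of that transcript over 10 rats; red is above and blue below the mean, and colours end at 1 log2 unit. Trpv4 is red in all 5 MT rats and blue in all 5 NS rats, and the 2 slide 3 arrays at the left stand out for Cacna1a, Cacng4 and Cacng8 (red) and Cacna1i (blue).

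Genes known for pain or as drug targets were taken as a further view of the members. Of the 16 genes listed for this view, 15 were tested, and none passed the adjusted threshold or met the study's criteria. The list did not hold Trpv4 or Cacna2d3, so this count does not cover them. Among those reported here, the largest differences were those of Scn11a (-0.42), Cacna1a (-0.36), Cacna2d1 (0.30, 0.28 and 0.25) and Scn9a (0.20). The first 2 of these turned sign, Scn11a to 0.07 under the fixed slide block and Cacna1a to 0.24 without NS rats 8 and 9.

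The dependence on slide 3 was set out over all members. Both slide 3 arrays lay above the other 8 for 9 tested members and below them for 6, against 22.7% and 17.9% of the RNAs with a value on every array. Without NS rats 8 and 9 or under the fixed slide block, 23 members turned sign. The 5 members that moved by more than 1.5-fold were Cacna1a, Cacng4, Cacng6, Scn10a and Scn4a. The shares of all RNAs that turned or moved in this way were not counted. Neither count is therefore read as particular to the channels. Cacnb3 (0.44 without NS rats 8 and 9) and Scn4b (0.45) kept their size when these rats were left out. The fixed slide block compares 1 MT rat with 3 NS rats, those of slide 2.

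**Figure D4:**
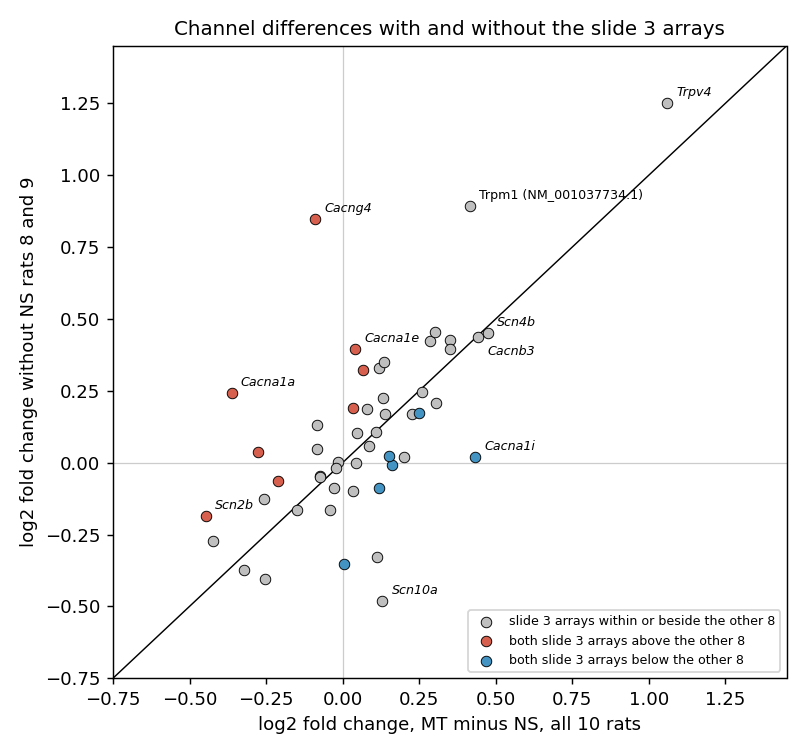
Difference of the 51 tested channel transcripts reported here (log2 fold change, MT minus NS) with all 10 rats on the horizontal axis and without NS rats 8 and 9 on the vertical axis; the diagonal marks equal values and colours mark members for which both slide 3 arrays lay above or below the other 8. Cacng4 moved from -0.09 to 0.85 and Cacna1a from -0.36 to 0.24, while Trpv4 moved from 1.06 to 1.25.

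The other genes examined were 56 that share an ion or a binding partner with these channels: acid-sensing, epithelial sodium and store-operated channels, intracellular calcium release channels, cyclic nucleotide-gated channels and proteins that bind or tether the channels. Of them, 34 were tested through 36 RNAs. None passed the adjusted threshold or met the study's criteria with limma. An unadjusted p below 0.05 was found for 6 RNAs that were higher in MT and 4 that were lower, 21 of the 36 were higher, and the median difference was 0.05, against the 16.4% and 49.8% of all RNAs given above. Rrad, a small GTPase that binds calcium channel beta subunits and holds the channels back, lay between 8.03 and 8.26 in MT and between 8.40 and 8.68 in NS, a difference of -0.35 (SE 0.078, adjusted p = 0.0978).

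Ank3, the scaffold that gathers sodium channels at the axon initial segment, differed by 0.49 (NM_001033984.1, SE 0.16) and 0.31 (NM_031805.1, SE 0.11), with adjusted p values of 0.20 and 0.22. Pex5l, a protein that binds HCN channels and directs their traffic, differed by 0.36 (SE 0.12, adjusted p = 0.21). Rims1, a presynaptic protein that holds calcium channels at release sites, differed by 0.96 (SE 0.43, adjusted p = 0.31). It read 5.42 in MT rat 2 and between 7.30 and 7.51 in the other MT rats, against 5.29 to 6.64 in the NS rats, and it met the study's criteria under several alternatives. Beside Rrad, the related RNAs lower in MT with an unadjusted limma p below 0.05 were Scnn1a, Kcne2 and Itpr1. They differed by -0.44 (SE 0.11), -0.45 (SE 0.14) and -0.16 (SE 0.057), with limma adjusted p values of 0.13, 0.19 and 0.23. These genes were named after their values were seen.

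Marker genes of the cells that a lumbar cord sample can hold were read beside these results. Markers of neurons, astrocytes and oligodendrocytes were detected, as the tissue label implies. Of the 10 neuronal marker entries, 8 were higher in MT with a median difference of 0.16 and none met the study's criteria. Their mean centred level lay between 0.02 and 0.14 in MT and between -0.25 and -0.0089 in NS, so that the groups did not overlap, while their summed linear intensity overlapped, at 240835 to 283126 in MT and 247881 to 297456 in NS. Map2, which encodes a dendritic protein, gave the largest of these differences (0.52 and 0.43). Its 2 entries name the same RefSeq transcript, with and without a version number, and both are among the 10. All 8 tested neuronal markers had signal, and their part in the channel differences was not tested.

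All 6 microglial marker RNAs were lower in MT, with a median of -0.34, of which Tmem119 (-1.24) met the study's criteria, and their summed intensity was 47828 to 61251 in MT and 58268 to 79554 in NS. All 3 neutrophil marker RNAs were higher, with summed intensities of 185 to 289 in MT and 81.2 to 145 in NS, which do not overlap. The astrocyte markers had a median of -0.04 and 3 of 8 RNAs higher, with summed intensities of 309975 to 341496 and 275892 to 362043. Both smooth muscle RNAs were higher, Cnn1 by 1.28, which met the study's criteria, and Tagln by 0.21, with summed intensities of 3084 to 7478 in MT and 3367 to 3911 in NS. All 3 meningeal fibroblast RNAs (median 0.39) and all 4 motor neuron RNAs (median 0.29) were higher, and none met the criteria. Their summed intensities overlapped, at 5004 to 5516 and 2475 to 6963 for fibroblasts and 27646 to 51716 and 27271 to 44922 for motor neurons. The part of these cells in the Trpv4 and other channel differences was not tested. Of the dorsal root ganglion markers, Mrgprd did not pass the filter, P2rx3 differed by -0.03, and the 3 RNAs of Calca, which motor neurons also express, met the study's criteria with differences of 0.62, 0.65 and 0.72.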

How the data were processed

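Total RNA of the lumbar enlargement of 5 MT and 5 NS rats was labelled with Cy3 and hybridized to single-colour Agilent-format rat lncRNA arrays, 1 per rat, so that replicates are separate animals. The authors extracted the spots with Agilent Feature Extraction 11.0.1.1 and deposited, for each array, background-subtracted spot intensity on a linear scale. They also deposited a table of quantile-normalized log2 values, which was used as an alternative and holds all 59 member probes.

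Intensities were floored at 1, taken to the log2 scale and normalized by quantiles (limma 3.58.1, R 4.3.3). After removal of outlier spots, spots were averaged per probe and probes per RNA. Every member has a single spot. Probes passed the filter with over 50% of spots well above background on 5 or more arrays. MT was compared with NS by linear models with empirical Bayes moderation, tested on simulated data. The simulated arrays held no slide effect, so they cannot show how the models behave where slide and group are mixed. The study's fold of 1.5 was read as linear. Gene names and positions came from RefSeq (GRCr8), which named 14274 of 15323 mRNA probes; the array design predates that build, and the positions printed belong to the genes rather than the probes.

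The members and lists were chosen with earlier results of these data known. Given for every rat were members past the adjusted threshold or the criteria, members with non-overlapping groups and the member of smallest p in each of 6 families. Members that turned or moved with slide 3, and pain or drug-target genes, were given by count with the 5 largest of each. Values of other members, such as Cacna1c, Scn2b, Scn4b, Trpc1 and Trpm1, were added after they were seen. A few member genes enter the counts and medians but are not reported here.

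The alternatives tried were 75th percentile scaling, normexp, the deposited table, other filters, outlier spots kept, a fixed or random slide block, no NS rats 8 and 9, each probe on its own, a variance trend, array weights, the methods' t-test and each rat left out. Normexp, with an offset of 50, used the deposited median foreground and background intensities. Python 3.11.15 with matplotlib 3.10.9 drew the figures. Arrays give no counts, so the number of arrays limits the precision. Behavioural and RT-qPCR measurements were not analysed here.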

Additional observations from a re-analysis of the deposited data

Results flagged for a closer look

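Within each group of 5 rats, the highest and lowest value of every tested channel RNA was compared with the rest by Dixon's test. Of 110 tests, 5 passed the 95% critical value, and chance alone gives about 1 in 20.

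In NS rat 7, Cacna2d3 was low at 9.30, against 9.48 to 9.55 in the rest of its group. In NS rat 10, Trpc4 (NM_080396.1) was low at 6.80, against 6.96 to 7.00 in the rest of its group. In NS rat 9, Trpa1 was low at 1.54, while the other NS rats lay between 3.69 and 3.93. In MT rat 2, Scn4a was low at 2.89, and the other MT rats lay between 4.04 and 4.49. In the same rat, Trpm1 (NM_001037734.1) was low at 4.64, and the other MT rats lay between 5.59 and 5.83. MT rat 2 is the 1 MT rat on slide 2, where the NS rats read between 4.56 and 4.64 for that RNA but between 4.02 and 4.25 for Scn4a.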

How the results depend on the processing

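No paired analysis was possible because the rats of the 2 groups share no numbers. Over 23 alternatives, the count of channel RNAs past the adjusted threshold stayed at 1 in 17 and was 0 under a fixed or random slide block, and with single rats left out it lay between 0 and 1. Over all RNAs that count was 40, and 0 under either block. The count meeting the study's criteria was 2 with 75th percentile scaling and with array weights (Trpv4 and Trpm1), 2 without a filter (Trpv4 and Cacng1), 2 under a fixed or random slide block (Trpv4 and Scn4a), 3 without NS rats 8 and 9 (Trpv4, Trpm1 and Cacng4) and 1 whichever single rat was left out. Over all RNAs the criteria were met by 555, and by 820 with 75th percentile scaling, 664 with array weights, 912 without a filter, 337 and 328 under the fixed and random block and 721 without NS rats 8 and 9. The members' median of 0.07 moved to 0.23 with 75th percentile scaling, where the median of all RNAs was 0.07. One related RNA met the criteria with 75th percentile scaling, normexp, the deposited table, a filter on all 10 arrays, a variance trend, array weights and without NS rats 8 and 9 (Rims1 each time), and with single rats left out the count lay between 0 and 1 (Rims1 or Mcoln2).

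Of the members given with values for every rat, Trpv4, Cacnb3, Cacna2d3, Scn2a and Cacng2 kept their direction in all 23. So did others, among them Cacna1c, Scn4b, Trpc1 and the Trpm1 RNA NM_001037734.1, whose values followed the slide. A kept direction was thus not particular to the members named first. Some members turned. Cacna1a was 0.24 without NS rats 8 and 9 and 0.13 with array weights. Cacng4 was 0.36 with 75th percentile scaling, 0.17 with the fixed block, 0.85 without NS rats 8 and 9, 0.53 with array weights, and between -0.39 and 0.27 with single rats left out. Cacng6 was -0.84 with the fixed and -0.36 with the random block, -0.0088 with array weights, and between -0.12 and 0.31 with single rats left out. Scn10a was -0.056 with normexp, -0.012 in the deposited table, -0.26 with the fixed block, -0.48 without NS rats 8 and 9, -0.46 with array weights, and between -0.37 and 0.53 with single rats left out. Scn4a was 0.33 with 75th percentile scaling, 0.054 with normexp, 0.094 in the deposited table, and between -0.28 and 0.12 with single rats left out. With the fixed and random block it was -1.25 and -0.68 and met the criteria. The cause was not tested. Cacng4, Cacng6, Scn10a and Scn4a were each well above background on fewer than 10 arrays, which limits their precision.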
